A study of Rattus norvegicus with 16 samples.

Results

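Lung RNA levels of the estrogen system were followed in 4 groups of rats. The genes were 8 that encode the receptors of estrogen (Esr1, Esr2 and Gper1), classic targets of the receptors (Pgr and Greb1) and enzymes that make or inactivate estrogen (Cyp19a1, Sts and Hsd17b2). A probe set, the group of probes that reads a gene, was used if it carried exactly 1 gene symbol. By this rule 6 of the 8 genes were measured, among 14506 genes in all. Esr1 had 2 probe sets and both are shown, and Esr2, Gper1, Pgr, Hsd17b2 and Sts had 1 each. Greb1 and Cyp19a1 were not analysed here.

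The animals were 16 male Sprague-Dawley rats of 250 to 300 g, and RNA of the right lung, its vessels flushed with saline, was hybridised to 1 Affymetrix array per rat. The normoxia group (n = 4) received no drug. The hypoxia group (n = 4) spent 2 weeks at 362 mmHg, which corresponds to 10% oxygen at sea level. The hypoxia with estradiol group (n = 4) went through the same hypoxia with a subcutaneous pump that released 75 µg/kg/day of 17β-estradiol over 3 weeks, and so the hormone was started 1 week ahead of the hypoxia. The hypoxia with estradiol and fulvestrant group (n = 4) had the same pump and hypoxia and also daily injections of 3 mg/kg/day of fulvestrant, which blocks the nuclear estrogen receptors and is known to lead to the degradation of estrogen receptor α. These last groups are called the estradiol group and the fulvestrant group. No group had estradiol or fulvestrant in normoxia, so that the effect of either drug was measured in hypoxia alone, and the labels do not say whether the undrugged rats carried pumps. All rats were male, and their ages are not given in the labels.

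Estradiol acts through Esr1 (estrogen receptor α) and Esr2 (estrogen receptor β), which are transcription factors that the hormone activates, and through Gper1, a G protein-coupled receptor of the cell membrane. The nuclear receptors bind estrogen response elements in DNA or join other transcription factors there, and Pgr (progesterone receptor) and Greb1 are among the genes that they induce in reproductive tissues. Aromatase, the product of Cyp19a1, makes estrogens from androgens, steroid sulfatase (Sts) frees estrogens from their sulfate store, and Hsd17b2 oxidises estradiol to the weaker estrone. In the lung the receptors are found in several cell types, endothelium and airway epithelium among them, and estrogens are known to influence the pulmonary vessels under hypoxia.

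Values are log2 signals after RMA, a method that removes background, aligns the arrays and summarises the probes of a probe set. A difference of 1 on this scale is a doubling of signal, and differences between dim signals are compressed. The 4 arrays of a group set the precision. Array medians lay between 7.69 and 7.77. In a principal component analysis of all genes the normoxia arrays lay between -20.8 and -12.0 on the first component and the other arrays between -2.05 and 16.3. On the second component estradiol replicates 2 (-25.4) and 3 (-22.3) stood apart from the other 14 arrays, which lay between -5.19 and 7.85, so the estrogen genes, and the list genes described by array, are also given without both where the estradiol group enters. Without them 0 of the 6 estrogen genes passed for estradiol added to hypoxia (differences of -0.26 to 0.06), fulvestrant added to estradiol (-0.15 to 0.32) or estradiol against normoxia (-0.40 to 0.17). In this fit 0 of all 14506 genes passed in the first 2 of these comparisons, so failing to pass in them sets no gene apart. In the third, 325 of all genes passed. Normoxia replicate 4 is titled normoxia but its treatment field reads hypoxia. It was kept as normoxia, and its first component (-19.7) lay among those of the other normoxia arrays. The mean of 10 lung identity markers, among them surfactant protein and endothelial genes, stayed within -0.05 to 0.02 of the normoxia mean on every array. Single markers ranged from -0.22 to 0.18 in hypoxia against normoxia, where 1 of the 10 passed, as lower, against 5.63% of all genes in either direction. The mean of 10 neutrophil markers lay 0.34 to 1.41 above the normoxia mean in the estradiol group. It lay at -0.79 to -0.07 in hypoxia and -0.34 to 0.28 in normoxia, and these 2 ranges overlap. In hypoxia against normoxia 8 of the markers were lower and 2 higher, and the 1 that passed was higher. With estradiol added to hypoxia 9 were higher and 1 lower. Among the estradiol arrays the mean of 10 immediate early genes was highest on replicates 2 (2.04) and 3 (1.07), and hypoxia replicate 2 read 1.10.

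The start regions of Esr1, Pgr and Sts are printed here because response elements for the receptors, where a start region holds them, can be read in them. Each window runs from 250 bases before the gene's start to 50 after it, in the gene's direction, from RefSeq's rat assembly GRCr8, where windows were found for 4 of the 8 genes. The Esr1 window is chr1:43641845-43642144 (plus strand), the Pgr window chr8:14354148-14354447 (plus strand) and the Sts window chrX:46102510-46102809 (plus strand). Capitals mark GGTCA or its reverse complement TGACC, an arm of the estrogen response element, in which GGTCA and TGACC follow each other with any 3 bases between them.
Esr1: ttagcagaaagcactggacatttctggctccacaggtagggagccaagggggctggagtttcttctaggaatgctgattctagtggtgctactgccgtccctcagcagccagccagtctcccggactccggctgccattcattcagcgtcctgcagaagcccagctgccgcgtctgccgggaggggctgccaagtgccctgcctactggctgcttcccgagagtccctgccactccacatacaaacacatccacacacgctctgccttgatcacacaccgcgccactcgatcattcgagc
Pgr: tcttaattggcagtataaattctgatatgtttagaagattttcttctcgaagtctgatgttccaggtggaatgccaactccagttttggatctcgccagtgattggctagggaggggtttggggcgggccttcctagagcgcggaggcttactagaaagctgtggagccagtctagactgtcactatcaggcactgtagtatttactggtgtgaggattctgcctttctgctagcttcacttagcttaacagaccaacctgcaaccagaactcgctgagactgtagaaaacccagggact
Sts: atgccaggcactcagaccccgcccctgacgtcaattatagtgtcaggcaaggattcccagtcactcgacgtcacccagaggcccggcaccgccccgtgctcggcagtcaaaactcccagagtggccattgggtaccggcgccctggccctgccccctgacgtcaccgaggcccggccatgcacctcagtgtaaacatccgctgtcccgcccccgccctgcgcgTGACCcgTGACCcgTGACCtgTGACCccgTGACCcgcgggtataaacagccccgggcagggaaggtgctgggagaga
The windows of Esr1 and Pgr held 0 arms, that of Sts held 5 and that of Esr2 (chr6:100644660-100644959, minus strand) held 2. The full element was found in 0 of the 4 windows. Searched on both strands, 40.5% of 33469 rat windows of the same length held at least 1 arm, 0.0926% held 5 or more, and 0.0269% held the full element. The core of the hypoxia response element, ACGTG, was found 2 times in the Esr2 window, on either strand of the same place next to its second arm, which both matches overlap, and 0 times in the windows of Esr1, Pgr and Sts, against 19.3% of all windows with at least 1. The cyclic AMP response element TGACGTCA, which reads the same on both strands, was found 2 times in the Sts window, against 1.83% of all windows with at least 1. These matches describe letters and say nothing of binding.

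Esr1 was the only gene of the 6 to pass a test in any of the 6 pairs of groups. It was lower in the lungs of rats given hypoxia and estradiol than in normoxia, and its means in hypoxia alone and in the fulvestrant group lay between those of these 2 groups, while the arrays of both overlapped those of either. On probe set 10702689, the brighter of its pair, the normoxia arrays read 7.52, 7.88, 8.03 and 7.46. The hypoxia arrays read 7.30, 7.51, 7.03 and 7.41. The estradiol arrays read 7.28, 7.28, 6.92 and 7.38, and the fulvestrant arrays read 7.51, 7.33, 7.46 and 7.31. All 4 estradiol arrays lay below all 4 normoxia arrays, while the hypoxia and fulvestrant arrays overlapped the lower pair of the normoxia arrays. Normoxia was also the most scattered group, with replicates 2 and 3 well above replicates 1 and 4.

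Between the estradiol group (7.21 ± 0.20, SD, n = 4) and normoxia (7.72 ± 0.28, SD, n = 4) Esr1 fell by 0.51 (95% interval -0.79 to -0.23), which is 1.42-fold lower, with an adjusted p = 0.0381 in limma's moderated test over all genes. In that comparison 5.21% of all genes passed and the arrays of 9.21% of all genes did not overlap between the groups, against 1 of the 6 estrogen genes by either count, and 2.34% of all genes passed as lower. The call is a close one. It was lost without estradiol replicates 2 and 3 (difference -0.39, adjusted p = 0.241), without normoxia replicate 2 (adjusted p = 0.115), normoxia replicate 3 (0.104), hypoxia replicate 1 (0.0501), estradiol replicate 1 (0.0561), estradiol replicate 2 (0.0635) or estradiol replicate 3 (0.113), with array weights (0.0535), and with only the arrays of these 2 groups in the model (0.132). Its size without any single array ranged from -0.59 to -0.41. Whole lung was measured, so fewer cells that express a gene and less RNA per cell cannot be told apart, here or for any gene that follows.

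Hypoxia alone gave an Esr1 difference that did not pass. The hypoxia mean (7.31 ± 0.21, SD, n = 4) was 0.41 below normoxia (95% interval -0.69 to -0.13, 1.33-fold lower, adjusted p = 0.0864). Here 0 of the 6 estrogen genes passed and 0 had arrays that did not overlap, against 5.63% and 12.1% of all genes, and the unadjusted p was under 0.05 for 1 of them, Esr1, against 20.4% of all genes. Adding estradiol to hypoxia gave an Esr1 difference of -0.10 (95% interval -0.38 to 0.18, adjusted p = 0.763), so a further fall of up to 1.30-fold and a rise of up to 1.14-fold both lie inside the interval. Without estradiol replicates 2 and 3 this difference was 0.02 (adjusted p = 0.988). Adding fulvestrant to estradiol gave 0.19 (95% interval -0.09 to 0.47, adjusted p = 0.56, and 0.08, adjusted p = 0.915, without the same replicates), and the fulvestrant group (7.40 ± 0.10, SD, n = 4) lay 0.32 below normoxia (adjusted p = 0.253) and 0.09 above hypoxia (adjusted p = 0.931). The order of the means was therefore normoxia, fulvestrant, hypoxia and estradiol, with no neighbours in it that differed by the test. The comparisons with normoxia share its 4 arrays, so a high or low normoxia array enters each of them.

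The second Esr1 probe set, 10702695, ranked the 4 groups in the same order with a wider scatter. Its normoxia arrays read 7.23, 7.72, 8.07 and 7.03. Its hypoxia arrays read 7.32, 7.16, 6.58 and 7.24. Its estradiol arrays read 7.12, 6.67, 6.52 and 7.05, and its fulvestrant arrays 7.14, 7.17, 7.39 and 7.32. The fulvestrant arrays all lay above the estradiol arrays on this probe set, and the estradiol arrays overlapped normoxia. In a fit of every probe set it was 0.68 lower in the estradiol group than in normoxia (95% interval -1.12 to -0.24, adjusted p = 0.0771) and 0.44 lower in hypoxia (adjusted p = 0.246). Fulvestrant added to estradiol gave a difference of 0.41 (95% interval -0.03 to 0.86, adjusted p = 0.372). Without estradiol replicates 2 and 3 these values were -0.43 for estradiol against normoxia (adjusted p = 0.459) and 0.17 for fulvestrant (adjusted p = 0.871), in a fit added after the data had been seen. Neither probe set passed in that comparison, in which 9.05% of all genes had arrays that did not overlap.

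No difference in response between the 2 Esr1 probe sets passed, in tests that after adjustment could not pass a difference in 1 comparison alone. Their changes differed by -0.03 for hypoxia (p = 0.80, adjusted over 3 tests p = 0.80), by -0.14 for estradiol (p = 0.429, adjusted p = 0.643) and by 0.22 for fulvestrant (p = 0.114, adjusted p = 0.343), in 2-sided exact permutation tests over 70 splits whose smallest possible p is 0.0286. Across the 16 arrays the values of the pair went together, with a Pearson correlation of 0.896, and of 0.844 once each group's mean was taken off. This correlation describes probe sets that read the same RNA on the same arrays. Both were high on normoxia replicates 2 and 3 and low on hypoxia replicate 3 and estradiol replicate 3.

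**Figure D1:**
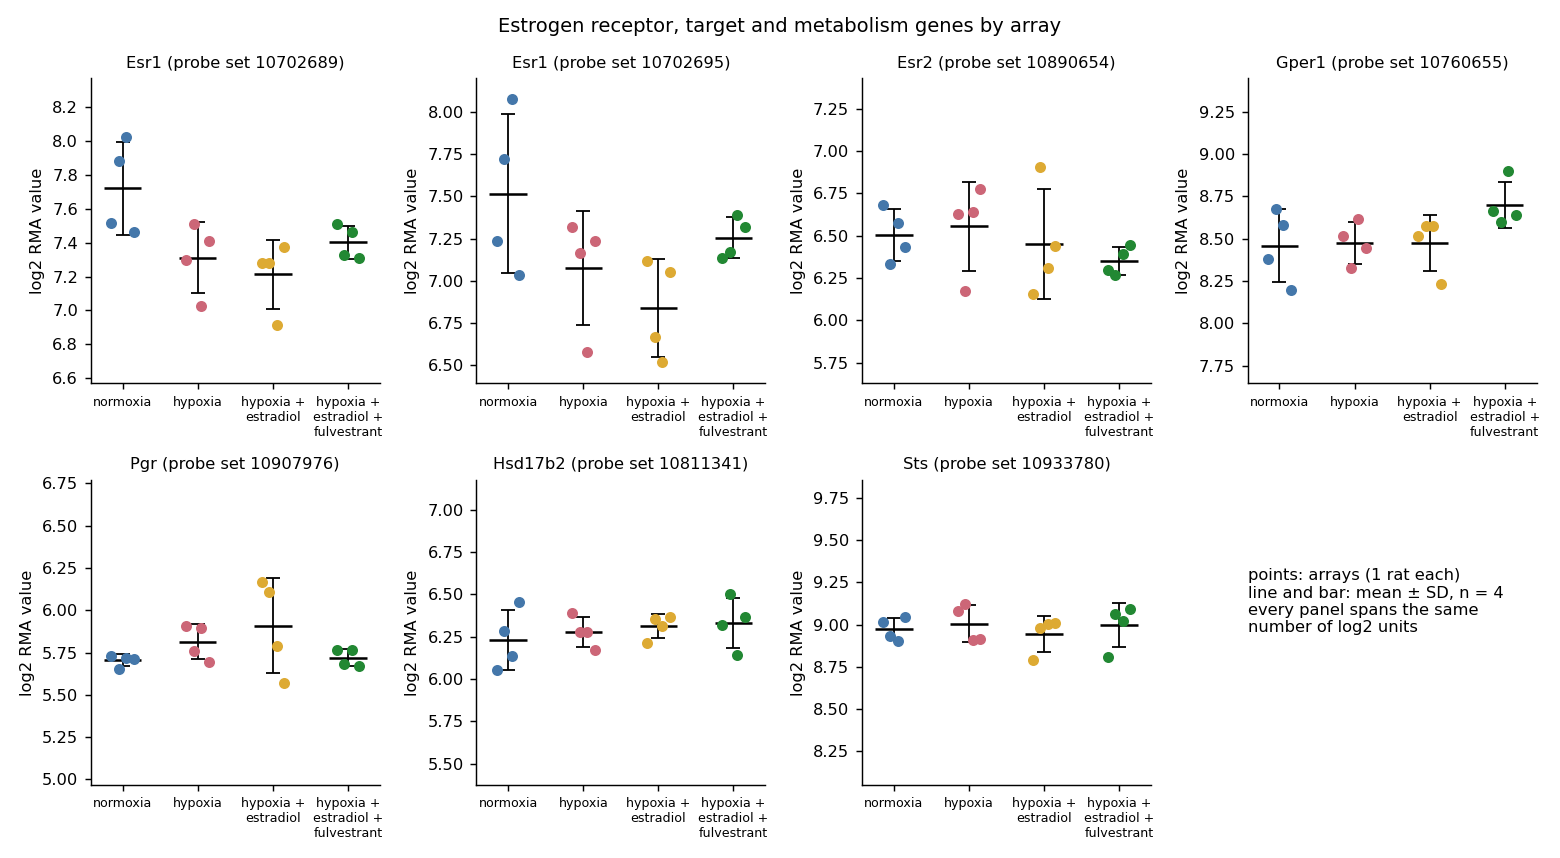
Log2 RMA value (vertical axis) on each of the 16 arrays, for both Esr1 probe sets and for Esr2, Gper1, Pgr, Hsd17b2 and Sts, by group. Points are arrays (1 rat each), lines are group means and bars are 1 SD with n = 4. Esr1 on probe set 10702689 falls from a mean of 7.72 in normoxia to 7.21 with hypoxia and estradiol, and the Hsd17b2 and Sts groups overlap throughout.

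Esr2 gave no difference that passed. Its probe set 10890654 read 6.68, 6.33, 6.58 and 6.44 in normoxia and 6.63, 6.17, 6.64 and 6.78 in hypoxia. It read 6.15, 6.91, 6.31 and 6.44 in the estradiol group and 6.30, 6.27, 6.39 and 6.45 in the fulvestrant group. The 4 groups overlapped, and the estradiol group held both the lowest and the highest of the 16 values. The difference was 0.05 for hypoxia against normoxia (95% interval -0.26 to 0.36, adjusted p = 0.889), -0.10 for estradiol added to hypoxia (-0.41 to 0.20, adjusted p = 0.77) and -0.10 for fulvestrant added to estradiol (-0.41 to 0.21, adjusted p = 0.815). The largest of its 6 differences was that of fulvestrant against hypoxia, -0.20 (adjusted p = 0.835). Without estradiol replicates 2 and 3 the difference was -0.26 for estradiol added to hypoxia (adjusted p = 0.601) and 0.06 for fulvestrant added to estradiol (adjusted p = 0.939). The intervals over all arrays leave room for changes of up to about 1.33-fold down and 1.28-fold up in the main comparisons.

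Gper1 was measured on probe set 10760655. Its arrays read 8.38, 8.68, 8.58 and 8.20 in normoxia, and 8.51, 8.33, 8.62 and 8.45 in hypoxia. They read 8.52, 8.57, 8.57 and 8.23 in the estradiol group and 8.66, 8.60, 8.90 and 8.64 in the fulvestrant group. The means of the first 3 groups were nearly equal (8.46 ± 0.21, 8.47 ± 0.12 and 8.47 ± 0.16, SD, n = 4 each), and the 4 fulvestrant arrays (8.70 ± 0.14, SD, n = 4) lay above the 4 estradiol arrays. Fulvestrant added to estradiol gave a difference of 0.22 (95% interval -0.01 to 0.45), which is 1.17-fold and did not pass (adjusted p = 0.35). In that comparison 0 of the 6 estrogen genes passed and 0 had an unadjusted p under 0.05 by limma, against 0.0483% and 14.8% of all genes, and Gper1 was the 1 gene of the 6 whose arrays did not overlap, against 9.05% of all genes. The fulvestrant and estradiol differences of Gper1 were 0.32 (adjusted p = 0.486) and -0.10 (adjusted p = 0.839) without estradiol replicates 2 and 3. Against normoxia the fulvestrant group was 0.24 higher (0.01 to 0.47, adjusted p = 0.297), in a comparison where 2.96% of all genes and 0 of these 6 passed, 2 of them (Gper1 and Esr1) with an unadjusted p under 0.05, against 15.3% of all genes. The smaller differences of Gper1, 0.02 for hypoxia (-0.21 to 0.25, adjusted p = 0.952) and 0.00 for estradiol added to hypoxia (-0.23 to 0.23, adjusted p = 0.999), have intervals that reach 1.19-fold up and 1.17-fold down.

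Pgr, the target by which estrogen action is usually read, was low on its probe set 10907976 and did not pass in any comparison. Its arrays read 5.73, 5.65, 5.72 and 5.71 in normoxia. They read 5.91, 5.76, 5.90 and 5.69 in hypoxia, 6.17, 6.11, 5.79 and 5.57 in the estradiol group, and 5.77, 5.68, 5.76 and 5.67 in the fulvestrant group. The highest readings of the 16 were those of estradiol replicates 1 and 2, but estradiol replicate 4 was the lowest of all, so the estradiol group spanned the range of every other group. The difference was 0.11 for hypoxia (95% interval -0.11 to 0.33, adjusted p = 0.596), 0.09 for estradiol added to hypoxia (-0.12 to 0.31, adjusted p = 0.697) and -0.19 for fulvestrant added to estradiol (-0.41 to 0.03, adjusted p = 0.416). Without estradiol replicates 2 and 3 the last 2 were 0.06 (adjusted p = 0.911) and -0.15 (adjusted p = 0.736). Estradiol added to hypoxia was a comparison in which 0 of the 6 estrogen genes passed and 0 had arrays that did not overlap, against 0.772% and 6.65% of all genes, and 0 had an unadjusted p under 0.05 by limma, against 16.1%. Against normoxia the estradiol group was 0.20 higher (adjusted p = 0.314), and without estradiol replicate 4 this difference was 0.32 and passed (adjusted p = 0.0352).

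The enzymes Sts and Hsd17b2 stayed within narrow ranges. Sts, the sulfatase that frees estrone from estrone sulfate, read 9.01, 8.93, 8.90 and 9.04 in normoxia and 9.08, 9.12, 8.91 and 8.92 in hypoxia on probe set 10933780. It read 8.79, 8.98, 9.00 and 9.01 in the estradiol group and 8.81, 9.06, 9.02 and 9.10 in the fulvestrant group. All 4 groups overlapped, between 8.79 and 9.12. The difference was 0.03 for hypoxia (95% interval -0.13 to 0.19, adjusted p = 0.858), -0.06 for estradiol added to hypoxia (-0.22 to 0.10, adjusted p = 0.739) and 0.05 for fulvestrant added to estradiol (-0.11 to 0.21, adjusted p = 0.823), so changes beyond 1.17-fold in either direction lie outside these 3 intervals. The estradiol and fulvestrant differences were -0.11 (adjusted p = 0.751) and 0.10 (adjusted p = 0.794) without estradiol replicates 2 and 3. Over all arrays its largest difference in any of the 6 pairs of groups was -0.06.

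Hsd17b2, whose product turns estradiol into estrone, was measured on probe set 10811341. It read 6.05, 6.28, 6.14 and 6.46 in normoxia and 6.39, 6.28, 6.28 and 6.17 in hypoxia. It read 6.22, 6.36, 6.31 and 6.37 in the estradiol group and 6.32, 6.50, 6.14 and 6.37 in the fulvestrant group. The groups overlapped. The difference was 0.05 for hypoxia (95% interval -0.14 to 0.24, adjusted p = 0.811), 0.03 for estradiol added to hypoxia (-0.15 to 0.22, adjusted p = 0.889) and 0.02 for fulvestrant added to estradiol (-0.17 to 0.21, adjusted p = 0.958), and without estradiol replicates 2 and 3 the last 2 were 0.01 (adjusted p = 0.987) and 0.04 (adjusted p = 0.944). The last pair of groups, fulvestrant against hypoxia, gave 0 passing genes of the 6 and 0.0% of all 14506, where 1009 genes (6.96%) had an unadjusted p under 0.05 by the same limma test and 2 genes passed in the model of only the groups compared. Esr2, Pgr and Hsd17b2 had overall means below 6.77, in the dimmest 25% of the 14506 genes, where true differences may read as smaller ones.

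**Figure D2:**
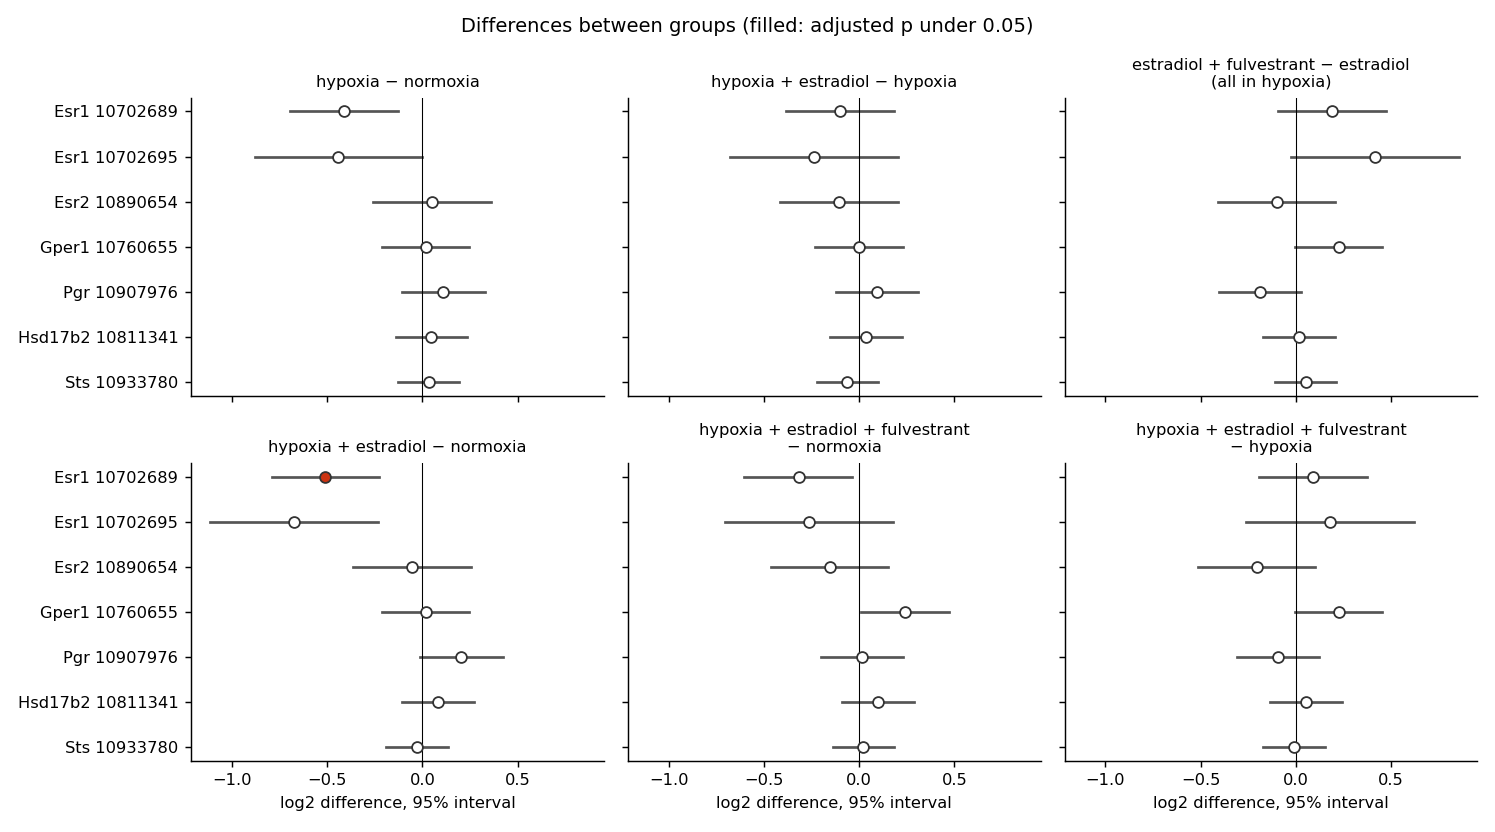
Log2 difference (horizontal axis) of each probe set in the 6 pairs of groups, as points with 95% intervals from limma's model. The filled point is the 1 difference with an adjusted p under 0.05, Esr1 in hypoxia with estradiol against normoxia at -0.51, and the Gper1 interval for fulvestrant added to estradiol runs from -0.01 to 0.45.

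For each of the 6 genes the 3 genes most like it were those with the highest Pearson correlation over the 16 arrays after each group's mean was taken off, among 14490 genes searched. The points share arrays and rats, so these correlations are descriptions. Those of Esr1 were Slco1c1 (0.898), a carrier of thyroid hormone, Gpm6a (0.867), a membrane glycoprotein, and Wt1 (0.859), a transcription factor of the mesothelium, the cell layer that covers the lung. Over the log2 values themselves, where differences between groups enter too, the correlations were 0.772, 0.401 and 0.208. Gpm6a read 9.84, 10.51, 10.74 and 9.62 in normoxia and 10.75, 10.39, 9.85 and 10.77 in hypoxia. Its high normoxia replicates 2 and 3 and its low hypoxia replicate 3 were also those of Esr1, while its hypoxia mean was 0.26 above normoxia (adjusted p = 0.658).

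A list of 8 mesothelial markers was added after these neighbours had been seen, and 6 were measured (Msln, Upk1b, Rspo1, Bnc1, Aldh1a2 and Calb2). Relative to the normoxia mean their mean read -0.34, 0.25, 0.36 and -0.27 on the normoxia arrays. It read 0.49, 0.20, -0.26 and 0.39 in hypoxia, 0.29, -0.24, -0.31 and 0.66 in the estradiol group, and 0.43, 0.32, 0.25 and 0.28 in the fulvestrant group. The arrays with the highest Esr1 of normoxia (replicates 2 and 3) and the lowest of the hypoxia and estradiol groups (replicate 3 in each) were high and low for this mean too. Other arrays did not go together. Hypoxia replicate 1 had the highest marker mean of its group (0.49), with Esr1 at -0.43 against -0.21 on replicate 2. Estradiol replicates 1 and 2 both had Esr1 at -0.44, with marker means of 0.29 and -0.24. Calb2 read below 6.77 on every array. As group means the markers lay above normoxia, by 0.21 in hypoxia, 0.10 in the estradiol group and 0.32 in the fulvestrant group, where Esr1 lay at -0.41, -0.51 and -0.32. Of the 6 markers 0 passed in any pair of groups by limma's test, and the unadjusted p was under 0.05 for 1 of them in fulvestrant against normoxia (15.3% of all genes) and for 0 in the other pairs. Their part in the spread of Esr1 was not tested.

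**Figure D3:**
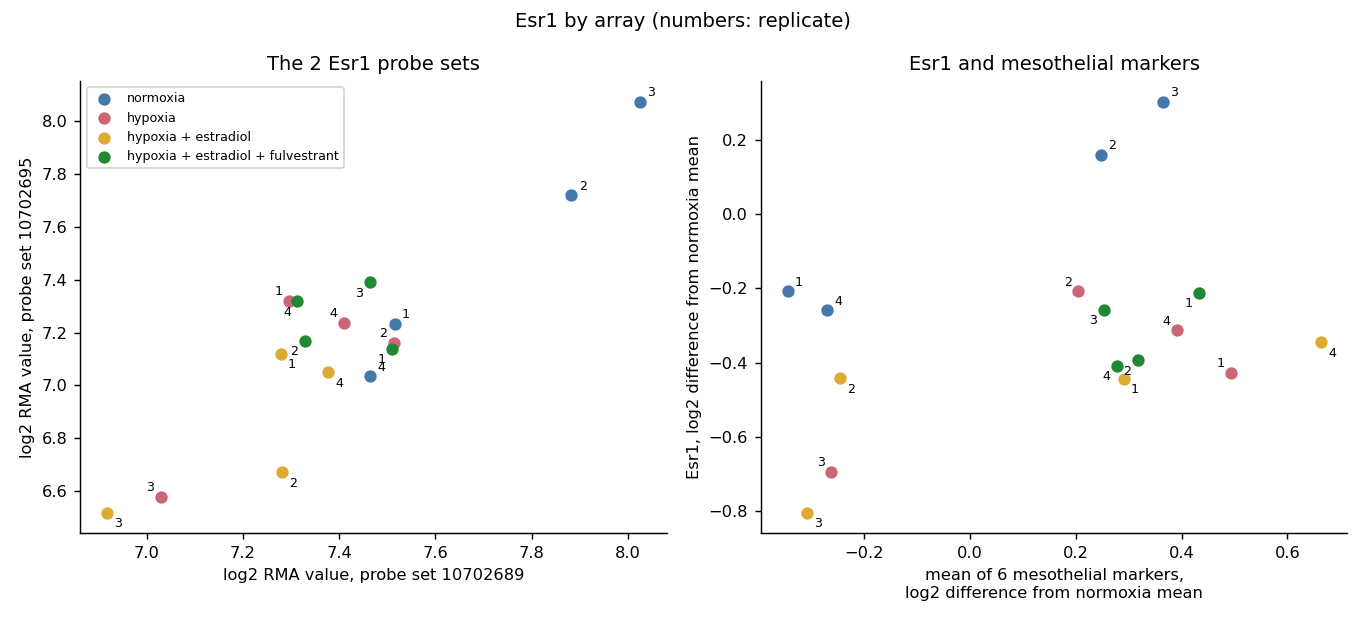
Left, the log2 RMA values of the 2 Esr1 probe sets against each other, and right, Esr1 (probe set 10702689, vertical axis) against the mean of 6 mesothelial markers (horizontal axis), both as log2 differences from the normoxia mean. Points are the 16 arrays, coloured by group and numbered by replicate. The values of the probe sets go together (Pearson correlation 0.896), and within normoxia, hypoxia and estradiol the low arrays of the marker mean include those lowest in Esr1.

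The genes most like the other 5 were spread over many functions. Those of Esr2 were Brd8 (0.846), Zfp131 (0.838) and Srfbp1 (0.836). Those of Gper1 were Arf4 (0.882), Kctd6 (0.851) and Gna14 (0.835), and Arf4, a small GTPase of vesicle traffic, also had a correlation of 0.846 over the log2 values. Those of Pgr were Fam76a (0.855), Or8k33 (0.843) and Adh1c (0.81). Those of Hsd17b2 were Or10al7 (0.903), Phgdh (0.885) and Kcnf1 (0.88), and those of Sts were Bag4 (0.894), Kcnab3 (0.879) and Spz1 (0.839). Or8k33 and Or10al7 belong to the odorant receptor family. All arrays of Or8k33, Or10al7, Kcnab3 and Spz1 read below 6.77, the limit of the dimmest 25% of genes, as did those of Slco1c1, named with Esr1. Likeness to these genes therefore rests on dim signals.

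The rest of the estrogen system was described from 5 lists that held 79 further genes, of which 71 were measured. The lists were chosen with earlier results of these data known. Their shares of passing genes, here and below, are therefore descriptions and not tests. Hypoxia against normoxia moved 8 of the 71 past the test (11.3%, against 5.63% of all genes), with 7 higher and 1 lower (against 3.21% and 2.43% of all genes) and a median difference of 0.04 against 0.03 over all genes. Estradiol added to hypoxia moved 2 of 71 (2.82%, against 0.772% of all genes), both lower (against 0.462% of all genes), with a median of 0.01 against -0.02. Fulvestrant added to estradiol moved 0 of 71 (0.0%, against 0.0483%), where 15 had an unadjusted p under 0.05 by limma, against 14.8% of all genes, with a median of -0.04 against 0.01. Some of these counts rest on single arrays. The hypoxia count was 5 without any 1 of normoxia replicates 1, 2 or 4 or hypoxia replicates 1, 2 or 4, and 13 without hypoxia replicate 3. The estradiol count was 0 without hypoxia replicates 1, 2 or 4 or estradiol replicates 2 or 3, 1 without hypoxia replicate 3, normoxia replicates 1, 2 or 3 or fulvestrant replicates 2 or 3, 4 without estradiol replicate 1 and 6 without estradiol replicate 4. The fulvestrant count was 4 without estradiol replicate 4. The calls among all 14506 genes moved in the same fits. For hypoxia (817 with all arrays) they were 428 to 681 where the count was 5, and 986 where it was 13. For estradiol (112 with all arrays) they were 3 to 7 in the fits without 1 array where the count was 0. They were 219 without estradiol replicate 1 and 355 without replicate 4. For fulvestrant (7 with all arrays) they were 331 without estradiol replicate 4. If normoxia replicate 4 was moved to the hypoxia group, 0 of the 71 genes passed in hypoxia against normoxia (40 of all genes). For estradiol added to hypoxia 0 of the 71 passed with that move or without estradiol replicates 2 and 3 (0 of all genes in both). With array weights (4 of all genes) or with only the groups compared (5 of all genes) 0 of the 71 passed too. Marker lists of other cells were read in hypoxia against normoxia too, where 5.63% of all genes passed. Of the measured markers 5 of 8 passed for T cells, all lower, and 1 of 5 for erythrocytes, as higher. For fibroblasts and smooth muscle 2 of 11 passed, both higher, and for ciliated and club cells 0 of 6. The mean of 8 T cell markers lay -0.71 to -0.44 from the normoxia mean on the hypoxia arrays (-0.31 to 0.31 on the normoxia arrays). That of 5 of 7 erythrocyte markers lay at -0.12 to 2.32 (-0.21 to 0.26), and that of 11 fibroblast and smooth muscle markers at 0.05 to 0.39 (-0.34 to 0.21). The last 2 ranges overlap those of normoxia. The part of these cells in the counts of estrogen genes was not tested.

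Among the receptors and their coregulators, 20 of 22 genes were measured and 0 passed limma's test in the 3 main comparisons, where 4, 5 and 4 had an unadjusted p under 0.05 for hypoxia, estradiol and fulvestrant, against 20.4%, 16.1% and 14.8% of all genes. The closest in hypoxia were the coactivator Ncoa3 (-0.21, adjusted p = 0.124) and the corepressor Ncor1 (-0.18, adjusted p = 0.115), which passed without hypoxia replicate 3 (adjusted p = 0.029). For estradiol added to hypoxia they were Gata3, a transcription factor that works with the human counterpart of Esr1 in breast epithelium (-0.68, adjusted p = 0.163), and the orphan receptor Esrrg (-0.34, adjusted p = 0.21). Gata3 read 10.51, 9.92, 10.31 and 10.45 in hypoxia, 9.94, 9.15, 9.04 and 10.33 in the estradiol group and 10.39, 10.42, 10.60 and 10.78 in the fulvestrant group. All of its fulvestrant arrays lay above its estradiol arrays, of which replicates 2 and 3 were the lowest. Its fulvestrant difference was 0.93 (adjusted p = 0.0793), and without estradiol replicate 4 both of its differences passed, with -0.92 for estradiol (adjusted p = 0.0247) and 1.17 for fulvestrant (adjusted p = 0.0112). Without estradiol replicates 2 and 3 they were -0.16 (adjusted p = 0.789) and 0.41 (adjusted p = 0.468). The coactivator Ncoa2 followed with -0.16 for fulvestrant (adjusted p = 0.278).

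Of the genes for estrogen synthesis and activation, 7 of 8 were measured and 0 passed limma's test in the 3 main comparisons, where 1, 2 and 1 had an unadjusted p under 0.05, against the same shares of all genes. Por, the reductase that supplies electrons to cytochrome P450 enzymes such as aromatase, came closest. It read 11.11, 11.21, 11.11 and 10.92 in hypoxia, 11.58, 11.58, 11.45 and 11.27 in the estradiol group and 11.05, 11.16, 10.99 and 10.97 in the fulvestrant group. The estradiol arrays lay above those of both other groups. The difference was 0.38 for estradiol (adjusted p = 0.0695) and -0.42 for fulvestrant (adjusted p = 0.0699), and both passed without estradiol replicate 4 (0.45, adjusted p = 0.026, and -0.49, adjusted p = 0.018). They were 0.34 (adjusted p = 0.43) and -0.38 (adjusted p = 0.365) without estradiol replicates 2 and 3. Cyp17a1, which makes androgen precursors, gave 0.12 for hypoxia (adjusted p = 0.392) and -0.20 for estradiol (adjusted p = 0.209), Por gave -0.23 for hypoxia (adjusted p = 0.168), and Hsd17b1, which makes estradiol from estrone, gave -0.16 for fulvestrant (adjusted p = 0.496).

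Of the genes for estrogen inactivation, 9 of 13 were measured and Cyp1a1, in hypoxia, was the 1 that passed in the main comparisons, where 5.63% of all genes passed in hypoxia. Cyp1a1, which hydroxylates estradiol and is induced through the aryl hydrocarbon receptor, read 10.10, 10.84, 10.49 and 10.67 in normoxia. It read 5.60, 6.19, 5.69 and 6.51 in hypoxia, 6.01, 7.04, 6.29 and 9.40 in the estradiol group and 7.36, 6.31, 5.50 and 7.46 in the fulvestrant group. All hypoxic arrays lay below normoxia, with estradiol replicate 4 the nearest to it, and normoxia replicate 4 read like the other normoxia arrays. In hypoxia Cyp1a1 fell by 4.53 (SE 0.58, adjusted p = 0.000285), or 23.0-fold on a scale that compresses dim signals, with all 4 hypoxia arrays below 6.77, so the fold in RNA may be larger. It was also lower than in normoxia with estradiol (-3.34, adjusted p = 0.00375, and -2.82, adjusted p = 0.0565, without estradiol replicates 2 and 3) and with estradiol and fulvestrant (-3.87, adjusted p = 0.00117). The sulfotransferase Sult1a1 was near the threshold in hypoxia (-0.40, adjusted p = 0.0525), with 4 hypoxia arrays below 4 normoxia arrays, and passed without normoxia replicate 3 (adjusted p = 0.0346), hypoxia replicate 3 (0.0424), estradiol replicate 2 (0.0426) or fulvestrant replicate 1 (0.0474). Hsd17b8, another oxidising enzyme, gave -0.20 for estradiol (adjusted p = 0.182) and 0.21 for fulvestrant (adjusted p = 0.166), the efflux pump gene Abcg2 gave 0.16 for estradiol (adjusted p = 0.315), and Cyp1b1, which hydroxylates estradiol too, gave -0.41 for fulvestrant (adjusted p = 0.272).

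Of 28 estrogen target genes 27 were measured, and 4 (14.8%, against 5.63% of all genes) rose in hypoxia while 0 fell, against 3.21% and 2.43% of all genes in these directions. They were the angiotensin precursor Agt (0.77, adjusted p = 0.0382), the chemokine Cxcl12 (0.75, adjusted p = 0.00182), the receptor partner of adrenomedullin Ramp3 (0.59, adjusted p = 0.0467) and the matrix protein Ccn5 (0.52, adjusted p = 0.0129). The calls of Cxcl12 and Ccn5 held without any 1 of the 8 arrays compared. Agt was lost in 6 of 16 fits that left out an array, those without normoxia replicates 1, 2 or 4 or hypoxia replicates 1, 2 or 4 (adjusted p up to 0.109). Ramp3 was lost in 11 of 16, those without any normoxia array, hypoxia replicates 1, 2 or 4, estradiol replicates 1 or 3 or fulvestrant replicates 1 or 3 (adjusted p up to 0.146).

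With estradiol added to hypoxia, 1 of the 27 targets (3.7%) passed, as lower, against 0.772% of all genes in either direction and 0.462% as lower, and it was Ccn5, a growth-restraining protein of vascular smooth muscle. Ccn5 read 10.57, 10.66, 10.58 and 10.83 in normoxia and 11.27, 11.13, 11.42 and 10.87 in hypoxia. It read 10.61, 10.60, 10.74 and 10.66 in the estradiol group and 11.07, 10.90, 10.74 and 10.58 in the fulvestrant group. The hypoxia arrays lay above those of normoxia and of the estradiol group, and the fulvestrant arrays spread between. Against hypoxia the estradiol group fell by 0.52 (SE 0.11, 1.43-fold, adjusted p = 0.0438), to a mean 0.00 from normoxia (adjusted p = 0.993), and with fulvestrant it was 0.17 higher (adjusted p = 0.534). The estradiol call was lost in 12 of 16 fits that left out an array, those without normoxia replicates 1, 2 or 3, any hypoxia array, estradiol replicates 1, 2 or 3 or fulvestrant replicates 2 or 3 (adjusted p up to 0.147), while the difference stayed between -0.62 and -0.44, and without estradiol replicates 2 and 3 together (-0.54, adjusted p = 0.269). In that last fit 0 of all 14506 genes passed for estradiol added to hypoxia. Igfbp4, which binds insulin-like growth factors, gave -0.52 for estradiol (adjusted p = 0.0663) and passed without estradiol replicate 1 (adjusted p = 0.0222), but not without replicates 2 and 3 (-0.51, adjusted p = 0.343). For fulvestrant added to estradiol the closest targets were the growth factor Areg (-1.26, adjusted p = 0.105) and Myc (-0.38, adjusted p = 0.201). Both were highest on estradiol replicates 2 and 3, with 9.91 and 9.22 for Areg and 9.14 and 9.13 for Myc, and both passed without estradiol replicate 4 (adjusted p = 0.0378 and 0.034). Without replicates 2 and 3 they were -0.45 for Areg (adjusted p = 0.55) and -0.07 for Myc (adjusted p = 0.881). Estradiol added to hypoxia gave 1.35 for Areg (adjusted p = 0.0785) and 0.51 for Myc (adjusted p = 0.0863). Against normoxia the estradiol group passed for both, with 1.36 (adjusted p = 0.0322) and 0.65 (adjusted p = 0.0129). Without replicates 2 and 3 those 2 were 0.55 (adjusted p = 0.241) and 0.33 (adjusted p = 0.121). In that comparison 5 of the 27 targets passed (18.5%, against 5.21% of all genes), 4 higher and 1 lower. Among the estradiol arrays the mean of the 10 immediate early genes was highest on replicates 2 and 3 too. It lay 2.04 and 1.07 above normoxia there, against 0.45 and 0.34 on the other estradiol arrays. On hypoxia replicate 2 it lay at 1.10, with 7.35 for Areg and 8.27 for Myc. The part of these genes in the values of Areg and Myc was not tested.

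All 8 vascular genes tied to estradiol were measured, and 3 (37.5%) rose in hypoxia while 0 fell, against the 3.21% and 2.43% of all genes. Nos3, the endothelial nitric oxide synthase, read 9.01, 8.88, 8.90 and 8.96 in normoxia and 9.65, 9.65, 9.48 and 9.36 in hypoxia, with no overlap. Nos3 rose by 0.59 (SE 0.08, adjusted p = 0.00033), and Ptgis, the prostacyclin synthase, by 0.60 (adjusted p = 0.00392), and both calls held without any 1 of the 8 arrays compared. Hmox1, the heme oxygenase, rose by 0.87 (adjusted p = 0.0472), a call lost in 12 of 16 fits that left out an array, those without any normoxia array, hypoxia replicates 1, 2 or 4, estradiol replicates 3 or 4 or fulvestrant replicates 1, 2 or 4 (adjusted p up to 0.139). Estradiol added to hypoxia gave -0.22 for Nos3 (adjusted p = 0.193), and -0.16 without estradiol replicates 2 and 3 (adjusted p = 0.558).

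Apln, a peptide that endothelium secretes, was the 1 vascular gene that passed with estradiol. It read 10.53, 10.48, 10.40 and 10.39 in normoxia and 10.74, 10.52, 10.10 and 10.33 in hypoxia. It read 9.96, 9.87, 9.26 and 9.37 in the estradiol group and 9.98, 10.18, 10.44 and 10.10 in the fulvestrant group. The 4 estradiol arrays were lower than the 12 others. Against hypoxia it fell by 0.81 (SE 0.16, 1.75-fold, adjusted p = 0.0362) and against normoxia by 0.84 (adjusted p = 0.0064), and with fulvestrant it was 0.56 above estradiol alone (adjusted p = 0.112). The call against hypoxia was lost without hypoxia replicates 1, 2 or 4 or estradiol replicates 2 or 3 (adjusted p up to 0.113), with the difference without single arrays between -0.93 and -0.69. It was also lost without estradiol replicates 2 and 3 together (-0.76, adjusted p = 0.218), with normoxia replicate 4 counted as hypoxia (0.0654), with array weights (0.0638) and with only the groups compared (0.188), while the difference from normoxia was -0.79 without the replicate pair (adjusted p = 0.0321). In the first 2 of these fits 0 of all 14506 genes passed for estradiol added to hypoxia. Vegfa, the endothelial growth factor, gave 0.15 for fulvestrant (adjusted p = 0.29).

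**Figure D4:**
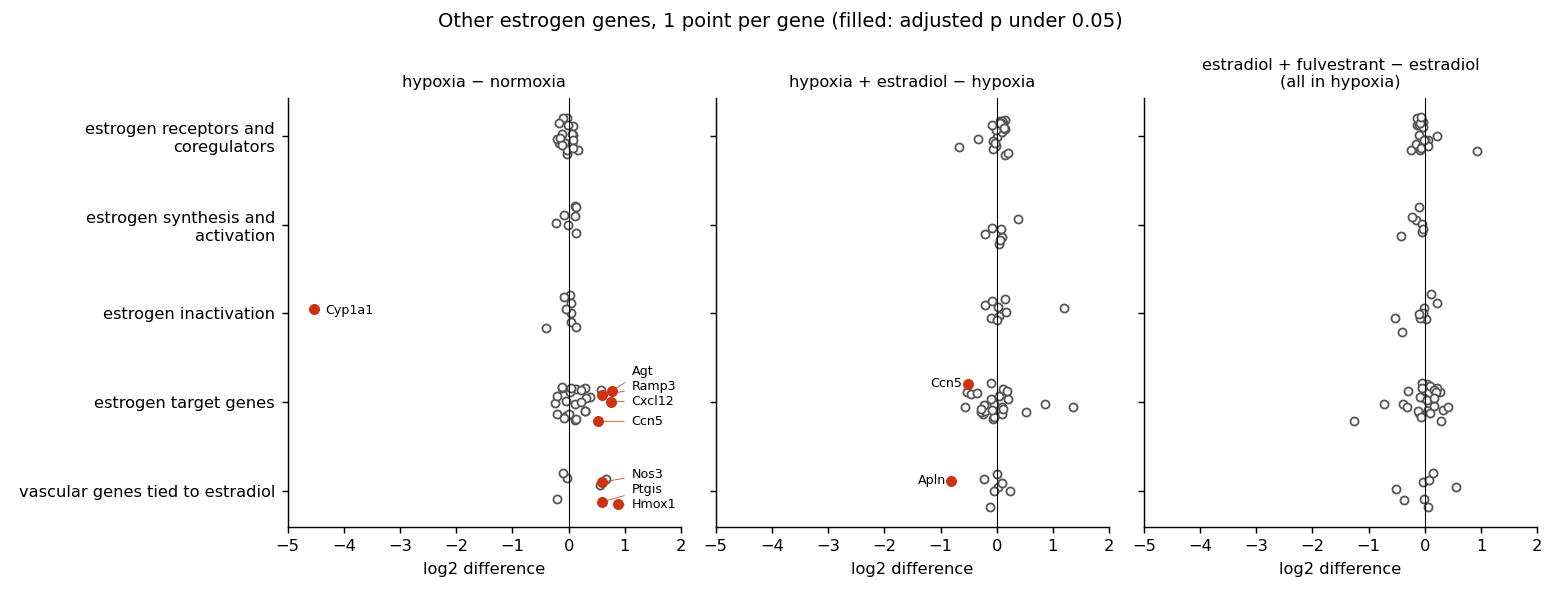
Log2 difference (horizontal axis) of the 71 other measured estrogen genes by list (vertical axis, points spread for sight) in the 3 main comparisons. Filled points passed the test (adjusted p under 0.05) and are named. Cyp1a1 stands at -4.53 and 7 genes lie between 0.52 and 0.87 in hypoxia, Ccn5 (-0.52) and Apln (-0.81) are the 2 filled points for estradiol, and 0 points are filled for fulvestrant.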

How the data were processed

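RNA of 16 rat lungs was measured on Affymetrix arrays. The deposited values are log2 signals that the authors made with RMA and Partek, per the submitters' processing notes, with versions, settings and genome build not given in the sources used here. Values run from 2.41 to 14.3, as log2 values do.

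Of 29214 probe sets 15310 had 1 gene symbol in the platform annotation, 323 had several and 13581 had none, and RefSeq's table held the gene IDs of 15279. Where probe sets shared a gene (527 genes), the brightest by mean over all arrays stood for it, which gave 14506 genes. No dim genes were removed.

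Groups came from sample titles. A linear model with a mean for each of the 4 groups was fitted to all 16 arrays with limma 3.58.1 (R 4.3.3), its variances moderated by eBayes, and p-values were adjusted by Benjamini-Hochberg over all genes with a threshold of 0.05. The second Esr1 probe set comes from the same model over all 15310 probe sets. The fits were tested on simulated data. Per list and main comparison, up to 4 passing genes with the largest change in each direction are named, and those with the smallest p up to 2 where fewer passed. The genes, lists and rules were chosen with earlier results of these data known.

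Replicates are separate rats. The labels give no batch or date, and samples were submitted group by group, so that a batch and a group cannot be told apart. Alternatives were median centring, a further quantile normalization, leaving out dim genes, other uses of probe sets, only the groups compared, a variance trend, array weights, leaving out each array, leaving out estradiol replicates 2 and 3, and normoxia replicate 4 counted as hypoxia. The second Esr1 probe set without estradiol replicates 2 and 3 was added after the data had been seen.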

Additional observations from a re-analysis of the deposited data

Results flagged for a closer look

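In 7 of 128 groups of 4 arrays examined, the highest or lowest array stood apart from the other 3 by more than Dixon's 95% critical value. Chance flags about 5% of groups. Among the 6 measured estrogen genes these were Gper1 in estradiol replicate 4, the lowest at 8.23 against 8.52 to 8.57, and Sts in estradiol replicate 1, the lowest at 8.79 against 8.98 to 9.01. Agt was lowest in estradiol replicate 2, at 8.42 against 8.97 to 9.00. Cxcl12 was lowest in hypoxia replicate 2, at 11.38 against 11.66 to 11.70. Cyp17a1 was highest in normoxia replicate 4, at 6.24 against 5.99 to 6.02. Esrrg was lowest in normoxia replicate 2, at 6.39 against 6.77 to 6.84. Hmox1 was highest in estradiol replicate 1, at 9.66 against 8.80 to 8.94.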

How the results depend on the processing

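No paired analysis was possible because the labels give no number that pairs rats across groups. Of 36 results of the 6 estrogen genes, 1 was called with all arrays, Esr1 for estradiol against normoxia. Over 918 alternative values of these results, 908 kept their side of the threshold, which for an uncalled result means staying uncalled. The 9 values that lost it were all of the Esr1 call, and 1 value gained it. The sign changed in 46 values, none of them called. Over 853 values of the named list genes, where 10 of 33 results were called, 770 kept their side, 67 lost it, 16 gained it and 0 changed sign. Of the 6 estrogen genes, 0 passed in hypoxia against normoxia, estradiol added to hypoxia or fulvestrant added to estradiol in any alternative. Among all genes the alternatives called as few as 40, 0 and 0 in these comparisons, so such zeros say little of the 6 estrogen genes. The 1 that passed for estradiol against normoxia, Esr1, became 0 with only the groups compared, with array weights or without estradiol replicates 2 and 3, and between 0 and 2 without single arrays. The cause of these changes was not tested.

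With normoxia replicate 4 counted as hypoxia, the genes called were 40 for hypoxia against normoxia (817 before), with 0 other estrogen genes, 0 for estradiol added to hypoxia (112 before), with 0 other estrogen genes, 351 for estradiol against normoxia (756 before) and 100 for fulvestrant against normoxia (430 before). Without estradiol replicates 2 and 3 they were 0 for estradiol added to hypoxia, with 0 other estrogen genes, 0 for fulvestrant added to estradiol (7 before) and 325 for estradiol against normoxia. With only the groups compared they were 5 for estradiol added to hypoxia, with 0 other estrogen genes, 0 for fulvestrant added to estradiol, 216 for estradiol against normoxia and 2 for fulvestrant against hypoxia (0 before). With array weights they were 4 for estradiol added to hypoxia, with 0 other estrogen genes, 786 for fulvestrant against normoxia and 2 for fulvestrant against hypoxia. For fulvestrant added to estradiol they were 22 after centring, 33 after quantile normalization, 28 without dim genes and 34 with a variance trend, and for estradiol added to hypoxia 1 other estrogen gene was called after centring and 1 after quantile normalization. Without single arrays the genes called ranged from 428 to 986 for hypoxia against normoxia (other estrogen genes 5 to 13), 3 to 355 for estradiol added to hypoxia (0 to 6), 0 to 331 for fulvestrant added to estradiol (0 to 4), 384 to 887 for estradiol against normoxia, 238 to 495 for fulvestrant against normoxia and 0 to 1 for fulvestrant against hypoxia. The differences between the Esr1 probe sets then ranged from -0.12 to 0.06, from -0.21 to -0.05 and from 0.14 to 0.30. Signal over background is the other limit, since 3 of the 6 genes lie in the dimmest 25% of all genes.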
